A study of Mus musculus with 8 samples.

Results

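Minar2 and 4 protein-coding genes that lie beside it on mouse chromosome 18, namely Slc27a6, Isoc1, Adamts19 and Chsy3, were followed across 8 expression arrays of mouse epidermis. Every probe set that the platform annotation assigns to 1 of these 5 genes was taken, each on its own. This gave 6 probe sets of 45037 tested, 2 of Minar2 and 4 of Isoc1. The annotation assigns no probe set to Slc27a6, Adamts19 or Chsy3, so these 3 genes were not analysed here. Minar2 was chosen by its difference between the groups, the largest in these same arrays, and the others by their place beside it. The differences between the groups in the 6 probe sets are therefore given as a description. Their limma calls are counted below but support nothing by themselves.

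In RefSeq's gene order for the mouse (GRCm38.p6), the 5 genes follow each other as Slc27a6, Isoc1, Adamts19, Minar2 and Chsy3. The other RefSeq entries within this stretch are 2 small nucleolar RNA genes and 2 pseudogenes, none of which has a probe set. Minar2, formerly A730017C20Rik, encodes a membrane protein related to the product of Minar1 and known to bind the receptor NOTCH2. Isoc1 encodes a protein with an isochorismatase-like hydrolase fold. Slc27a6 encodes a fatty acid transport protein, Adamts19 a secreted metalloprotease of the ADAMTS family, and Chsy3 an enzyme that polymerises chondroitin sulfate. G9a, encoded by Ehmt2, places methyl groups on histone H3K9, a mark of silenced chromatin, which can spread over neighbouring genes.

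The samples are interfollicular epidermis, the part of the skin epithelium that lies outside hair follicles, with 4 replicates labelled G9a cKO (a conditional knockout) and 4 labelled G9a WT, all from mice given as 15 weeks old. Both groups had received the carcinogen DMBA (0.25 mg/ml) and the tumour promoter TPA (0.02 mg/ml) on shaved back skin, 200 µl once a week for 6 weeks from an age of 8 weeks, and the tissue is labelled pre-neoplastic. The labels do not give the Cre driver, the deleted part of G9a, the strain or the sex, nor do they tell if replicates are different animals, and the p-values then cover only the spread among the arrays, which may be technical. Values are log2 expression per probe set made by the authors with RMA.

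The check of the labels and of the tissue was as follows. At probe set 1460692_PM_at, Ehmt2 read 6.30 to 7.07 in cKO and 9.25 to 9.77 in WT, so that the 2 groups lay 2.18 apart and differed by -2.88 (log2, SE 0.19, adjusted p of 0.000244 by limma), while 1426888_PM_at differed by 0.01 (SE 0.06, limma adjusted p = 0.996). The sign of the latter turned under median centring and without some single arrays. Over 13 measured keratinocyte markers the mean level per array was 10.97 to 11.04 in both groups, led by the keratin genes Krt14, Krt5 and Krt1. For 7 lists of other cell types (fibroblasts, neural and Schwann cells, melanocytes, endothelium, leukocytes, muscle and fat, hair follicle and sebaceous gland) the ranges of the 2 groups overlapped, and none of their probe sets passed the test of cKO against WT by limma. The mean level of these 7 lists was 4.50 to 6.47 per array. Some of their markers were bright over the arrays, such as Krt79 (10.34), Thy1 (10.33) and Sox9 (9.33). The check does not show the tissue free of other cells. Bulk RNA does not separate fewer cells of a type from less RNA per cell. Over all 45037 probe sets, 210 passed at a limma adjusted p under 0.05, which is 0.466%, with 177 higher in cKO and 33 lower. Leaving out single arrays moved that number between 104 (without WT 1) and 356 (without WT 4), with 131 without cKO 2. Without both cKO 2 and WT 4, a pair chosen with earlier results of these data known, 657 passed.

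Minar2 was near the lower end of the array's range in every WT array and well up the scale in every cKO array at 1 of its 2 probe sets. Probe set 1437528_PM_x_at read 7.86, 7.64, 8.44 and 7.89 in cKO 1 to 4 and 3.24, 4.25, 3.65 and 4.31 in WT 1 to 4 (log2 levels). The 2 groups were far apart, with 3.33 log2 units between the lowest cKO array and the highest WT array. The means were 7.96 ± 0.34 in cKO and 3.86 ± 0.51 in WT (SD, n = 4 each), a log2 difference of 4.10 (SE 0.25), which is 17.1-fold and the largest of all 45037 probe sets. In WT 8.03% of all probe sets had a lower mean and in cKO 77.5% did. The WT level was not shown to lie above background, so the size of the fold is uncertain. The suffix _x_at marks a probe set with probes that other transcripts may share, and no sequence of the probes was used here.

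The second Minar2 probe set, 1433577_PM_at, had the same order of groups at a much smaller distance. It read 5.26, 5.01, 5.32 and 5.25 in cKO 1 to 4 and 4.19, 4.54, 4.20 and 4.34 in WT 1 to 4. The lowest cKO array stood 0.47 above the highest WT array. The means were 5.21 ± 0.14 and 4.32 ± 0.16 (SD, n = 4 each), a log2 difference of 0.89 (SE 0.09), or 1.86-fold. This probe set was also dim, with 20.4% of all probe sets below its mean in WT and 41.2% in cKO. The 2 probe sets of Minar2 thus gave 17.1-fold and 1.86-fold for the same samples, and which is nearer to the change of the transcript was not tested.

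Isoc1, which lies on the other side of Adamts19 from Minar2, was bright in all 8 arrays and slightly higher in cKO at each of its 4 probe sets. Probe set 1425050_PM_at, the brightest, read 11.12, 11.14, 11.18 and 11.11 in cKO 1 to 4 and 10.90, 10.94, 10.87 and 10.95 in WT 1 to 4, a log2 difference of 0.22 (SE 0.04), or 1.17-fold. Probe set 1425051_PM_at read 9.06, 8.98, 9.13 and 9.05 in cKO 1 to 4 and 8.63, 8.80, 8.73 and 8.67 in WT 1 to 4, a log2 difference of 0.35 (SE 0.05), or 1.27-fold. In both, every cKO array stood above every WT array.

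Probe set 1425052_PM_at of Isoc1 read 10.11, 10.01, 10.10 and 9.99 in cKO 1 to 4 and 9.72, 9.79, 9.77 and 9.80 in WT 1 to 4, a log2 difference of 0.28 (SE 0.04), or 1.22-fold. Probe set 1425053_PM_at read 10.49, 10.46, 10.54 and 10.46 in cKO 1 to 4 and 10.26, 10.26, 10.27 and 10.37 in WT 1 to 4, a log2 difference of 0.20 (SE 0.04), or 1.15-fold. The groups were separate here too, by 0.19 and 0.09. Averaged over the 4 probe sets, Isoc1 stood at 10.19, 10.15, 10.24 and 10.15 in cKO 1 to 4 and at 9.88, 9.95, 9.91 and 9.95 in WT 1 to 4. The group means of this average were 10.18 ± 0.04 and 9.92 ± 0.03 (SD, n = 4 each). The difference of 0.26 was several times the spread within either group. The 4 probe sets report on the same gene in the same RNA and are no replicates of each other.

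**Figure D1:**
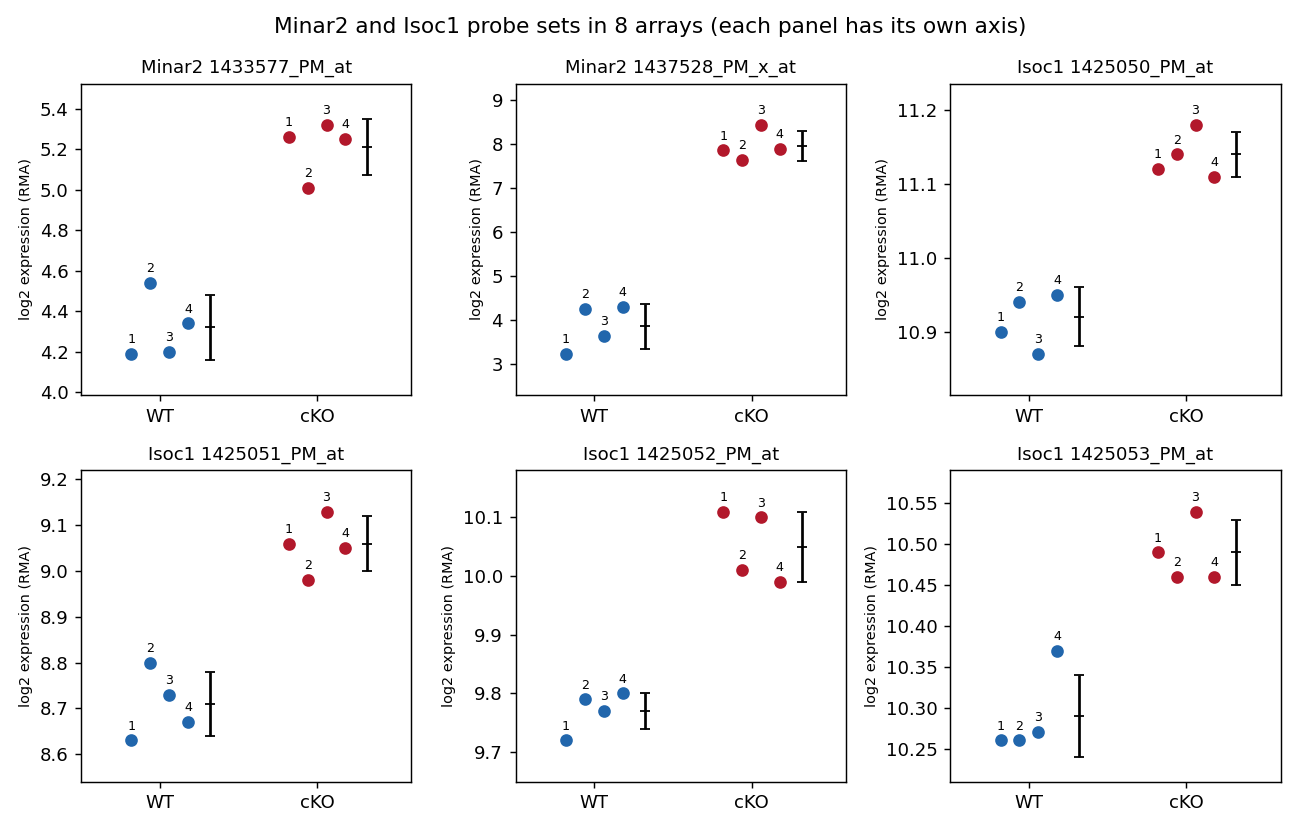
Level (log2 expression, RMA) of the 2 Minar2 and 4 Isoc1 probe sets in the 4 WT (blue) and 4 cKO (red) arrays, numbered by replicate, with the mean ± SD beside them in black; each panel has its own vertical axis. All 4 cKO arrays lie above all 4 WT arrays in each of the 6 panels, by 3.33 in Minar2 1437528_PM_x_at and by 0.09 in Isoc1 1425053_PM_at.

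In all 6 probe sets the cKO arrays lay above the WT arrays, an order found in 3.17% of all probe sets tested. In the limma fit over all probe sets, 4 of the 6 stood past the threshold, against 0.466% of all probe sets (0.393% for higher in cKO): both of Minar2 and, of Isoc1, 1425051_PM_at and 1425052_PM_at. The choice of Minar2 from the same contrast means that these counts support nothing by themselves. The count was 2 without cKO 1, without cKO 3, without WT 1 or without WT 3, when both Isoc1 probe sets fell short. It was 3 without cKO 2, without cKO 4 or without WT 2, when 1 of these Isoc1 probe sets fell short. It was 4 without WT 4 and without both cKO 2 and WT 4. Both Minar2 probe sets were called in each of these fits with 1 array fewer, which the choice of Minar2 favours.

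Within the groups the 6 probe sets ordered the arrays in part alike. Among the cKO arrays, cKO 3 was the highest in 5 of the 6 probe sets, and cKO 2 was the lowest, or level with the lowest to 2 decimals, in 4. Among the WT arrays, WT 1 was the lowest or level with the lowest in 5 of the 6, and WT 4 was the highest in 4. After removal of the group means, the correlation of Minar2 1437528_PM_x_at over the 8 arrays was 0.794 with the other Minar2 probe set and between 0.655 and 0.811 with those of Isoc1. The other pairs were less even. They ran from 0.1 for Isoc1 1425051_PM_at with Isoc1 1425053_PM_at to 0.84 for Isoc1 1425051_PM_at with Minar2 1433577_PM_at. Minar2 1433577_PM_at with Isoc1 1425053_PM_at stood at 0.264. All these correlations are a description: the points share the arrays and their normalisation. For Ehmt2 at 1460692_PM_at, the level in WT 1 to 4 was 9.77, 9.25, 9.69 and 9.26. WT 1 and WT 3, the 2 WT arrays with the lower readings of Minar2 at 1437528_PM_x_at, read higher for Ehmt2. Those Minar2 readings were not shown to lie above background in WT. Their order there, and the correlations that use them, may therefore not follow the transcript. In cKO 1 to 4 the Ehmt2 level was 7.07, 6.72, 6.35 and 6.30, which is not the reverse of the order of Minar2, since cKO 2 had the least Minar2 and the second highest Ehmt2. The relation between the genes was not tested.

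The genes on either side of the 5 did not pass the test. The 10 nearest genes with a probe set before Slc27a6 and the 10 nearest after Chsy3 have 33 probe sets. Limma called 0 of them at an adjusted p under 0.05 over all probe sets, against 0.466% of all. At that share, no call among 33 probe sets says little about these genes. In simulated data the fit recovered 17.4% of changes of 0.25 (log2), so changes as small as those of Isoc1 could be missed. In 4 of the 33 the unadjusted limma p was under 0.05, against 3596 of all 45037 probe sets. The median log2 fold change of the 33 was 0.03, against 0.01 over all probe sets, with a range of -0.39 to 0.49. In 1 of the 33, that of Tcof1, the groups did not overlap, against 4.89% of all probe sets. Of these 20 genes the one nearest before Slc27a6 is Fbn2, which encodes the extracellular matrix protein fibrillin-2. Fbn2 read 4.59 ± 0.07 in WT and 4.53 ± 0.07 in cKO, a difference of -0.06 (log2, SE 0.05, limma adjusted p = 0.906). Next to it, the ion cotransporter gene Slc12a2 differed by -0.11, -0.05 and -0.11 at its 3 probe sets, and none passed.

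After Chsy3, the nearest gene with a probe set is Iigp1, an interferon-inducible GTPase. Iigp1 stood at 0.36 (SE 0.24) and 0.24 (SE 0.20) on the log2 fold change scale at its 2 probe sets, with limma adjusted p of 0.826 and 0.901. Its values spread widely within groups, from 8.81 to 9.67 in cKO and from 8.33 to 9.33 in WT at 1419042_PM_at, and the groups overlapped. Of the flanking genes, the lowest p-values belonged to the ubiquitin ligase gene Marchf3 (-0.39, SE 0.14, limma adjusted p = 0.469), to C330018D20Rik (0.23, SE 0.09, adjusted p = 0.524; its other probe set 0.15), to the dynactin subunit gene Dctn4 (0.18, SE 0.07, adjusted p = 0.542; its 6 probe sets from -0.06 to 0.18) and to Tcof1, the gene of the nucleolar protein treacle (-0.09, SE 0.04, adjusted p = 0.614). The largest difference was at Cd74, the invariant chain of MHC class II found in antigen-presenting cells, at 0.49 (SE 0.32, limma adjusted p = 0.814). No flanking gene was called under any of the 16 alternative settings tried.

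**Figure D2:**
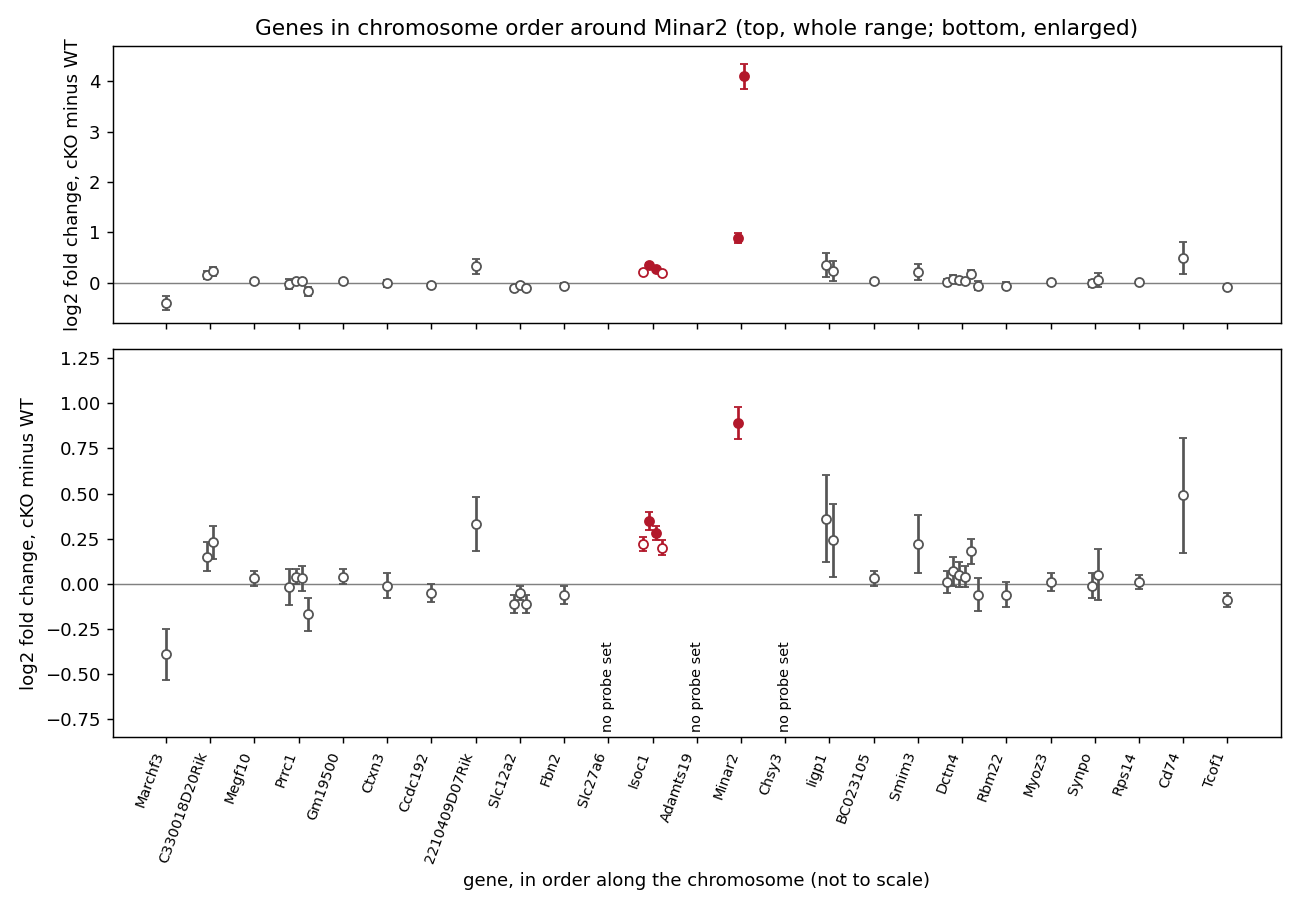
Log2 fold change (cKO minus WT, ± SE) of each probe set of the 5 genes (red) and of the 10 nearest measured genes on each side (grey), in the order of the genes along the chromosome, not to scale; the lower panel enlarges the range near 0, filled points passed the limma test over all probe sets, and genes without a probe set are marked. Minar2 reaches 4.10 and 0.89, Isoc1 0.20 to 0.35, and the flanking genes lie between -0.39 and 0.49 with no filled point.

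Over chromosome 18 without the 5 genes, but with the flanking genes counted in, 785 probe sets of 426 genes were tested. Of these 3 passed, 0.382% against 0.466% of all probe sets. These 3, named after their values were seen, were Sh3tc2 (0.33, SE 0.04, limma adjusted p = 0.0132) and the proteasome subunit gene Psma8 (0.40, SE 0.06, adjusted p = 0.0290), both higher in cKO, and the clustered protocadherin gene Pcdhb19, which was lower (-1.02, SE 0.11, adjusted p = 0.00523). The median log2 fold change of the 785 was 0.00. The number called was 1 without cKO 3 or without WT 3, 5 without WT 4 and 13 without both cKO 2 and WT 4.

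NOTCH pathway genes and Minar1 were taken as the setting of Minar2. Of 33 listed genes 29 were measured with 53 probe sets. Limma called none of the 53 over all probe sets, against 0.466% of all. In 4 of them the unadjusted limma p was under 0.05, against 3596 of all 45037 probe sets. The median log2 fold change of the 53 was 0.02 and their range -0.21 to 0.14. Minar1, the closest relative of Minar2, read 4.44 ± 0.09 in cKO and 4.46 ± 0.12 in WT at 1437501_PM_at, which differ by -0.02 (log2, SE 0.07, limma adjusted p = 0.995), and 0.03 (SE 0.04, adjusted p = 0.958) at its other probe set. Minar1 was dim at 1437501_PM_at, near the lower quartile of the arrays (4.47 to 4.54). Notch2, the gene of the receptor that the Minar2 protein binds, read 9.17 ± 0.03 in cKO and 9.24 ± 0.10 in WT (-0.07, SE 0.05, limma adjusted p = 0.890). The furthest by p were genes of proteases that cut NOTCH receptors: the gamma-secretase genes Psen2 (0.14, SE 0.06, limma adjusted p = 0.533) and Ncstn (0.13, SE 0.05, 0.549), and Adam10 (-0.14, SE 0.06, 0.597) and Adam17 (-0.12, SE 0.05, 0.611). Over all their probe sets, Ncstn ran from 0.00 to 0.13, Adam10 from -0.18 to -0.08 and Adam17 from -0.12 to -0.06. Hes1, a common target of NOTCH signalling, stood at 0.13 (SE 0.08, limma adjusted p = 0.814).

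Isoc2b, an isochorismatase domain gene related to Isoc1, had 1 probe set and read 6.78, 6.82, 6.86 and 6.89 in cKO 1 to 4 and 6.53, 6.65, 6.44 and 6.79 in WT 1 to 4. WT 4 reached above cKO 1, so that the groups overlapped, and the log2 fold change of 0.24 (SE 0.07) did not pass (limma adjusted p = 0.360). It passed with array weights (0.30, adjusted p = 0.0465), in a range over all alternatives of 0.0465 to 0.812.

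Chsy3 had no probe set. The other genes of chondroitin and dermatan sulfate synthesis gave 26 probe sets of 19 genes out of 21 listed. Of these probe sets 1 passed, 3.85% against 0.466% of all. That was Dse, the epimerase that converts chondroitin into dermatan sulfate. Dse read 5.64, 5.78, 5.55 and 4.89 in cKO 1 to 4 and 4.43, 4.52, 4.53 and 4.34 in WT 1 to 4. All cKO arrays were above all WT arrays, with cKO 4 the nearest to WT. Dse thus rose by 1.01 on the log2 scale (SE 0.17, limma adjusted p = 0.0427). In WT Dse was dim, with a mean of 4.45 ± 0.09 (SD) near the lower quartile of the arrays (4.47 to 4.54), which limits the measure of that rise. The call was lost without any 1 of 7 of the 8 arrays (adjusted p of 0.0622 without WT 4 to 0.168 without cKO 3) and without both cKO 2 and WT 4 (0.0621). The difference itself moved little in these fits, from 0.90 without cKO 2 to 1.04 without WT 3 and 0.87 without both arrays, and it stood at 1.20 with an adjusted p of 0.000690 without cKO 4. The other 25 probe sets did not pass. Among them were Chpf (0.32, SE 0.10, limma adjusted p = 0.382) and Chsy1 (-0.09, SE 0.12, adjusted p = 0.959), which act in chain polymerisation with Chsy3, and the sulfotransferase genes Chst15 (0.14, SE 0.05, 0.417) and Chst3 (0.32, SE 0.13, 0.565). Chst3 passed without WT 4 (0.46, adjusted p = 0.0328) and without both cKO 2 and WT 4 (0.45, 0.0473), in a range over all alternatives of 0.0328 to 0.997. In 5 of the 26 the unadjusted limma p was under 0.05, against 3596 of all 45037 probe sets. The median of the 26 was 0.07, against 0.01 over all probe sets.

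For Adamts19, also without a probe set, 19 of 23 listed genes of the ADAMTS and ADAMTS-like family were measured with 34 probe sets. Limma called none of the 34 over all probe sets, against 0.466% of all. In 5 of them the unadjusted limma p was under 0.05, against 3596 of all 45037 probe sets. The median log2 fold change of the 34 was -0.01. Adamts9, a protease of extracellular matrix proteoglycans, read 6.11, 5.65, 5.90 and 5.83 in cKO 1 to 4 and 6.68, 6.17, 6.43 and 6.41 in WT 1 to 4 at 1437785_PM_at. The groups did not overlap there, and the log2 fold change was -0.55 (SE 0.12, limma adjusted p = 0.138), but its other probe sets stood at -0.28 and -0.01 with overlapping groups. With array weights 1437785_PM_at passed (-0.58, limma adjusted p = 0.0315). It also passed with the replicate number as a block (-0.55, 0.00669), in a range over all alternatives of 0.00669 to 0.381. Adamts5 (-0.13, SE 0.05, limma adjusted p = 0.468), Adamts4 (-0.12, SE 0.05, 0.570) and Adamtsl1 (0.12, SE 0.05, 0.623) followed by p. Over all their probe sets, Adamts5 ran from -0.15 to -0.01, Adamts4 from -0.12 to -0.05 and Adamtsl1 from -0.09 to 0.12.

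For Slc27a6, likewise without a probe set, 17 of 18 listed genes of fatty acid uptake and activation were measured with 30 probe sets. Limma called none of the 30 over all probe sets, against 0.466% of all. In 1 of them the unadjusted limma p was under 0.05, against 3596 of all 45037 probe sets. The median log2 fold change of the 30 was 0.00, with a range of -0.36 to 0.18. The other members of the fatty acid transport family lay near 0, with Slc27a1 at 0.12 and 0.16, Slc27a2 at 0.02, Slc27a3 at -0.11 (SE 0.06, limma adjusted p = 0.782), Slc27a4 at 0.00 and Slc27a5 at -0.06. The lowest p in the list was that of Got2, an aminotransferase also described as a fatty acid binding protein (0.13, SE 0.05, limma adjusted p = 0.435), followed by the acyl-CoA synthetase gene Acsl4 (-0.36, SE 0.18, 0.703), Slc27a3 and Acsl5 (-0.07, SE 0.05, 0.836). Over all their probe sets, Got2 ran from 0.00 to 0.13 and Acsl4 from -0.36 to -0.14. Over the 5 lists together, 1 of 144 probe sets passed, 0.694% against 0.466% of all probe sets.

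**Figure D3:**
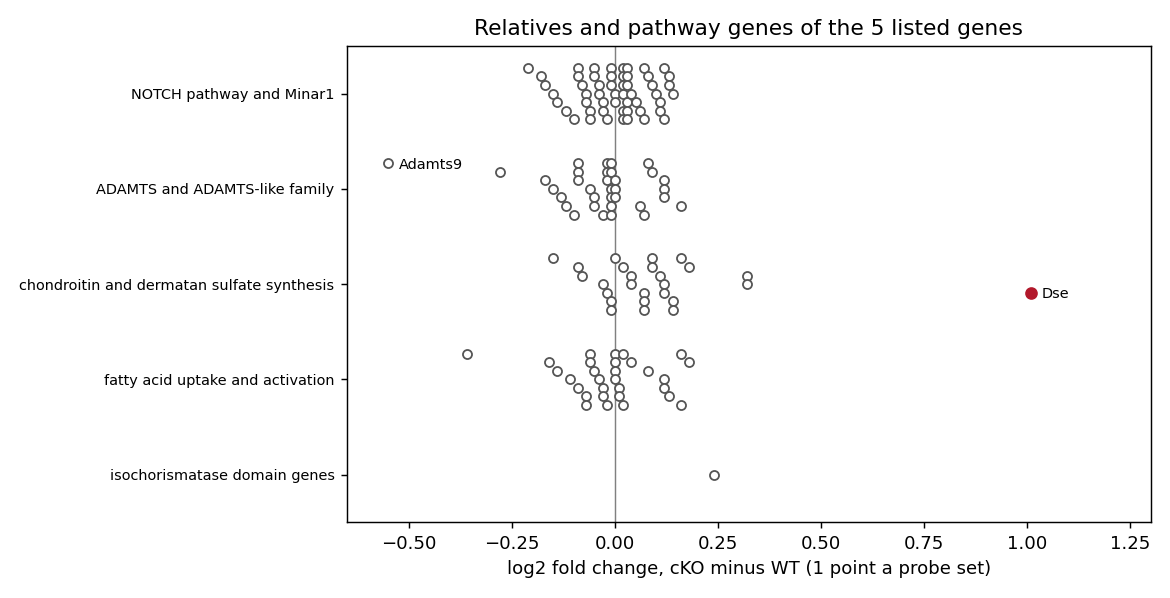
Log2 fold change (cKO minus WT) of each probe set in 5 lists of relatives and pathway genes of Minar2, Adamts19, Chsy3, Slc27a6 and Isoc1, with 1 point a probe set and the filled red point for the one that passed the limma test. Dse stands at 1.01, Adamts9 at -0.55 and the other points lie between -0.36 and 0.32.

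The probe sets whose levels ran most like Minar2 1437528_PM_x_at over the 8 arrays belonged to genes on other chromosomes. By Pearson r the 8 nearest of 1 named gene were Akr1c12 at 1422000_PM_at (0.997), Iqca (0.996), Akr1c12 at 1450455_PM_s_at (0.994), Snrpn (0.993), Akr1c13 (0.992), Gpa33 (0.991), Lrp11 (0.991) and Efcab1 (0.990). Akr1c12 and Akr1c13 encode aldo-keto reductases and Snrpn a splicing protein from an imprinted domain. The measure mostly reflects the 2 groups, and a probe set with a large difference and little spread ranks high by construction. With the group means removed, the r of these 8 lay between 0.674 for Efcab1 and 0.955 for Akr1c12 at 1422000_PM_at. The r with the whole values was 0.985 for the other Minar2 probe set and 0.956 to 0.987 for those of Isoc1. Their differences between cKO and WT ran from 1.04 (SE 0.08) for Iqca to 3.75 (SE 0.21) for Akr1c13. In each of the 8, WT 1 stood below its own WT mean and WT 2 above it, as in Minar2, an order that the choice by r favours. The choice was not stable: 3 of the 8 stayed among the 8 nearest without cKO 4, 3 without WT 4 and 5 without WT 2.

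**Figure D4:**
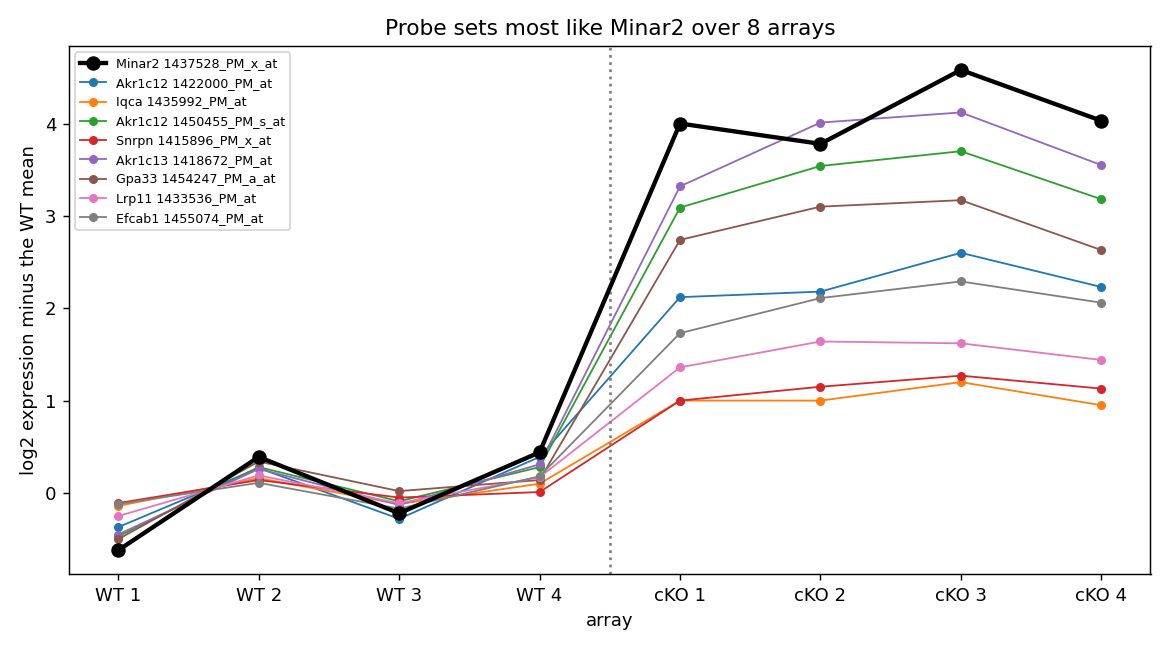
Log2 expression minus the WT mean of the same probe set, for Minar2 1437528_PM_x_at (black) and the 8 probe sets with the highest Pearson r to it, over the 4 WT and 4 cKO arrays; lines join the values of 1 probe set and carry no order of samples. Minar2 runs from -0.62 in WT 1 to 4.58 in cKO 3, and the other lines have a like shape at smaller differences.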

How the data were processed

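Each of 8 samples had 1 array. The deposited values are log2 expression per probe set, which the authors obtained by RMA (named in the submitters' processing notes without version or settings); the log base is inferred from the range of the values (array medians 5.72 to 5.80). Centring could not be set against scanner files. RMA normalises arrays to like distributions, which hides any common shift. Per the labels' protocols, 25 ng of RNA were amplified in 17 cycles. Arrays give no read depth; their number, 4 per group, limits the precision.

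Of 45141 rows, 104 control probe sets were left out. The platform annotation pairs 28898 of the 45037 others with 1 gene and 551 with several, and does not name 15588; 28689 were given current symbols by Entrez number, and no gene was named from a probe set of several genes. Groups came from the titles. cKO was compared with WT by limma 3.58.1 (lmFit, eBayes) (R 4.3.3) in a two-sided test, adjusted after Benjamini and Hochberg over all probe sets, a threshold of 0.05 and no filter. SE are from this fit. The 5 genes, the lists, the rules and the settings were chosen with earlier results of these data known. Named are all probe sets of the 5 genes, Ehmt2, up to 4 genes a list by p, and the 8 probe sets most like Minar2; chosen after their values were seen were Fbn2, Slc12a2, Iigp1, Cd74, Minar1, Notch2, Hes1, Chsy1, Slc27a1, Slc27a2, Slc27a4, Slc27a5 and the 3 genes called on chromosome 18. Sequences from this chromosome are not printed.

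On simulated data shaped like cKO against WT the fit was tested in 10 runs over 45037 probe sets with 200 changed: it recovered 17.4% of those changed by 0.25, 70.4% by 0.5, 93.6% by 1 and 99.4% by 2 (log2), and 4.73% of calls were false. Simulated noise was independent between probe sets. Plots were drawn with matplotlib 3.10.9.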

Additional observations from a re-analysis of the deposited data

Results flagged for a closer look

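Of 74 groups of 4 arrays looked at in 37 named probe sets, 3 held an array far from the other 3, with a gap to the nearest array that filled most of the group's range; chance flags about 1 in 20 groups. Isoc1 at 1425053_PM_at read 10.37 in WT 4 against 10.26 to 10.27 in the other WT arrays. Adamtsl1 at 1430313_PM_at read 4.77 in WT 1 against 4.88 to 4.90. Acsl5 at 1428082_PM_at read 11.10 in WT 2 against 11.05 to 11.06.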

How the results depend on the processing

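The 16 alternatives to the fit were the replicate number as a block, quantile normalisation again, median centring, only the upper 50% of probe sets by mean, a prior with trend, array weights, each array left out, leaving out both cKO 2 and WT 4, and a table with 1 probe set a gene. Both Minar2 probe sets kept their direction and side of the threshold wherever they were tested: 1437528_PM_x_at ran from 3.89 to 4.45 and 1433577_PM_at from 0.85 to 0.98, the latter in 14 settings since the upper 50% and the gene table leave it out. Minar2 was chosen by its difference in these same arrays, so its steadiness supports nothing by itself. All 4 Isoc1 probe sets kept their direction, and their calls moved. Past the threshold came 1425050_PM_at with a trend (0.22), array weights (0.25) and the gene table (0.22), and 1425053_PM_at with array weights (0.23). Short of it fell 1425051_PM_at with the replicate block (0.35), and 1425052_PM_at with the block (0.28) and in the upper 50% (0.28). With single arrays left out these ran from 0.32 to 0.38 and from 0.26 to 0.30. The cause was not tested.

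The number of probe sets called of the 6 was 2 with the replicate block, 2 of 5 in the upper 50%, 2 of 2 in the gene table, and 2 to 4 with single arrays left out. It was 5 with a trend and 6 with array weights. Of all probe sets it was 132 in the upper 50%, 758 with array weights, 657 without both cKO 2 and WT 4, and 104 to 356 with single arrays left out; of the relatives 2, 0 and 4 with the replicate block, the upper 50% and array weights, and 0 to 1; of chromosome 18 1, 13 and 13 in the upper 50%, with array weights and without both arrays, and 1 to 5. Ehmt2 at 1426888_PM_at turned sign under median centring (0.00) and ran from -0.03 to 0.04 with single arrays left out. With single arrays left out, 3 to 7 of the 8 probe sets most like Minar2 stayed so, a count added after seeing the data. The labels do not tell if the replicate numbers pair the samples, and the values did not settle it. Same-numbered deviations correlated at 0.134, 0.221, -0.624 and 0.368, and 2 of 4 cKO arrays correlated best with their own number. Adamts9 passed with the replicate block (-0.55, limma adjusted p = 0.00669), where the range over all alternatives was 0.00669 to 0.381. Low signal limits Minar2, whose WT level was not shown to lie above background. Low signal also limits dim genes such as Fbn2, Minar1 and, in WT, Dse.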
